A study of Mus musculus with 12 samples.

Results

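The genes described here encode 50 proteins of the mitochondrial respiratory chain and ATP synthase, 37 of them in the nuclear genome and 13 in the mitochondrial genome. They were listed by name, with earlier results of these data known. All 50 were found among the 56941 gene IDs of the count table. All 50 were also among the 15001 genes with enough counts to be tested. The measurements were bulk RNA-seq counts from RAW264.7 cells, an established murine macrophage line, grown on porous culture inserts. In 6 control libraries the cells lay under an agarose cushion alone, and in 6 compressed libraries a weight on the cushion applied 0.14 kPa of compressive stress, in both cases for 24 h. The control cells therefore carried the cushion too, and the comparison is of the added weight in 1 cell line. Whether the 6 libraries of each condition derive from independent cultures was not given in the sources consulted, and the spread behind every p-value below may be technical only.

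The respiratory chain passes electrons from NADH (complex I) and succinate (complex II) through ubiquinone to complex III, then by way of cytochrome c to complex IV, where oxygen is reduced. The proton gradient that complexes I, III and IV build drives ATP synthase, often called complex V. Each of these complexes except complex II combines subunits made in the cytosol from nuclear genes with subunits made inside the organelle from mitochondrial DNA, so both genomes have to supply their parts. Macrophages are known to lean on this chain or on glycolysis to different degrees depending on how they are activated.

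Total counts were 37948795 to 40463545 per control library and 33460807 to 39103987 per compressed library, and levels are given as CPM, a gene's counts scaled to libraries of the same size with library sizes corrected by the TMM method. All 10 macrophage markers that were listed, among them Csf1r, Cd68 and Adgre1, were detected and tested. The summed markers of other cell types reached at most 0.151 CPM in any library for epithelial cells, 0.362 for fibroblasts, 0.097 for T and B cells and 1.24 for endothelial cells. Compressed replicate 6 stood apart from the other 11 libraries. Over all tested genes, 32.6% had their highest level of the 12 libraries in it and 32.4% their lowest. Counts of calls are therefore given with all 12 libraries and again with the 11 that remain without it, and a fold change with no other mention is from all 12. Fold changes are compressed over control, and a gene was called at an adjusted p of 0.05 or less over all tested genes.

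With all 12 libraries, most nuclear respiratory chain genes did not pass the test. Of 37, 2 were called higher under compression (Ndufa1 and Uqcrq) and 4 lower (Cyc1, Sdha, Atp5f1a and Atp5f1b), against 24.5% and 21.9% of all tested genes called higher and lower. Their median log2 fold change was -0.01, beside 0.02 for all tested genes. The levels of the groups did not overlap for 2 members that were higher (background 16.5%) and 2 that were lower (background 17%). Where library size alone was used for scaling, 0 were called higher and 8 lower. That scaling called 3079 of all 15001 tested genes higher and 4050 lower.

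Without compressed replicate 6 the same 37 genes gave another count. Now 25 were called lower, 3 higher and 9 neither, against 32.2% of all tested genes called lower and 33.8% called higher. The 6 genes called with all 12 libraries kept their direction, 21 genes moved from not called to lower, and Ndufs3 became called higher, a call that ended where these 11 libraries were scaled by library size alone. The median log2 fold change was -0.15, beside 0.00 for all tested genes, and the individual values ran from -0.41 for Ndufa4 to 0.21 for Ndufa1. In 16 of the 37 every one of compressed replicates 1 to 5 lay below every control (background 24.9%), and in 2 every one lay above (background 25%). The changes were small. With a test against a fold change of 1.2 in place of 1, 4 nuclear members were called lower and 0 higher in these 11 libraries. Over all 15117 tested genes that test called 2260 lower and 2679 higher.

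Summed over the 37 nuclear genes, the level was 7168 to 7497 CPM in the controls (median 7334). It was 6078 to 7024 CPM in compressed replicates 1 to 5 and 9203 CPM in compressed replicate 6. The first 5 compressed libraries thus lay below all controls and the sixth above all of them. In bulk RNA, fewer cells of a kind and less RNA per cell cannot be told apart, and CPM gives shares of the counted RNA rather than amounts per cell.

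**Figure D1:**
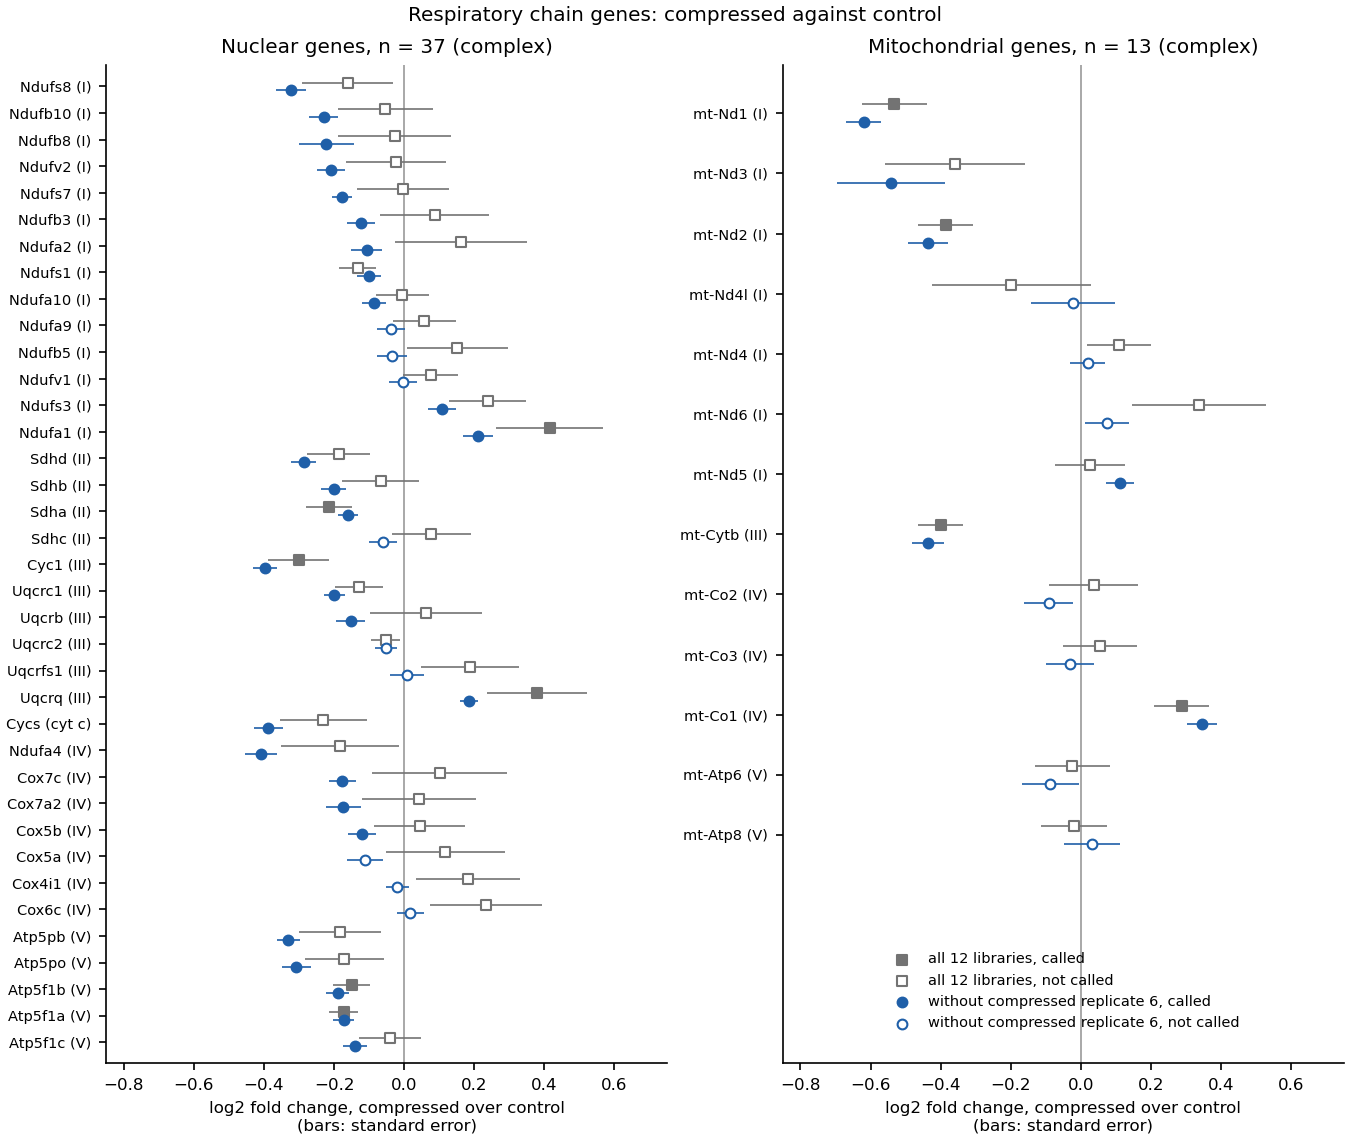
Log2 fold change (compressed over control, x axis) of each nuclear (left) and mitochondrial (right) gene, grouped by complex, with all 12 libraries (grey squares) and without compressed replicate 6 (blue circles). Filled symbols were called, open ones were not, and bars are standard errors. Most nuclear genes lie near 0 with wide bars in grey and below 0 with narrow bars in blue, while Ndufa1 and Uqcrq lie above 0 in both.

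Complex I oxidizes NADH, and 14 of its nuclear genes were measured. With all 12 libraries edgeR called 1 higher and 0 lower (2 and 1 at an unadjusted p under 0.05, and 1 and 1 by DESeq2). Without compressed replicate 6, 2 were called higher and 9 lower. The edgeR shares over all tested genes were 24.5% higher and 21.9% lower, then 33.8% and 32.2%. Ndufa1 (ENSMUSG00000016427), a small accessory subunit of the membrane arm, had the highest fold change of the 14. Its controls ranged from 31.5 to 35.1 CPM (median 33.2), compressed replicates 1 to 5 from 35.9 to 42.5 CPM, and compressed replicate 6 reached 72.8 CPM (median of 6, 38.6). The groups did not overlap. The log2 fold change was 0.42 ± 0.15 (SE, n = 6 and 6, adjusted p = 0.0396) and 0.21 ± 0.04 without compressed replicate 6 (adjusted p = 2.06e-04).

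Ndufs8, a core subunit that holds iron-sulfur clusters, had the lowest fold change of the complex I genes. Controls ranged from 137 to 147 CPM (median 142), compressed replicates 1 to 5 from 99.6 to 122 CPM, and compressed replicate 6 had 195 CPM. All of the first 5 lay below every control and the sixth above. The log2 fold change was -0.16 ± 0.13 with all 12 (adjusted p = 0.333) and -0.32 ± 0.04 without that library (adjusted p = 1.02e-06). Ndufs7, the other core iron-sulfur subunit next to it in the electron path, showed the same layout, with 66.1 to 69.8 CPM in controls, 58.4 to 63.1 in compressed replicates 1 to 5 and 106 in replicate 6. Ndufb10 of the membrane arm was the third complex I gene with that layout, with 61.8 to 68.3, 51.3 to 61.7 and 100.3 CPM. Compressed replicates 1 to 5 thus lay wholly below the controls in 3 of the 14 genes, beside 24.9% of all tested genes.

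Ndufs3, a core subunit of the matrix arm, was with Ndufa1 one of the 2 complex I genes called higher without compressed replicate 6, with a log2 fold change of 0.11 ± 0.04 (adjusted p = 0.0248). With library size alone as the scaling of the same 11 libraries it was at 0.05 and not called. Its controls (53.9 to 60.4 CPM) and compressed replicates 1 to 5 (55.6 to 66.0 CPM) overlapped, and over 75.7% of its transcript a near-identical copy gene, Gm12251, had 149 counts beside its 27677. Ndufs1, the largest iron-sulfur subunit, was one of a pair of nuclear members that were lower in compressed replicate 6 than in any other library, at 133 CPM beside 142 to 166 in compressed replicates 1 to 5 and 163 to 170 in controls. The remaining complex I genes had log2 fold changes between -0.22 and -0.003 without that library. Ndufv1, which carries the flavin that takes electrons from NADH, was at 99.9 to 107 CPM in controls and 93.4 to 112 in compressed replicates 1 to 5, which overlapped. Ndufb8 had the lowest level per kilobase of transcript of the 37, at 14.9 CPM per kb in controls, and shares 134 bases (19.7% of its transcript) with the readthrough gene Gm20538 on the same strand. How reads in that stretch were counted is not given in the sources used here.

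Complex II, succinate dehydrogenase, is encoded wholly in the nucleus and belongs to the citric acid cycle as well. Of its 4 genes, 1 was called lower with all 12 libraries and 3 without compressed replicate 6, beside 21.9% and 32.2% of all tested genes. Sdha, the flavoprotein that oxidizes succinate, ranged from 312 to 323 CPM in controls (median 317), from 266 to 295 CPM in compressed replicates 1 to 5 and was at 219 CPM in replicate 6. Here all 6 compressed libraries lay below all controls. The log2 fold change was -0.21 ± 0.07 (adjusted p = 0.016), and -0.16 ± 0.03 without replicate 6 (adjusted p = 6.32e-05). Sdhc, a membrane anchor, had the highest fold change of the 4, 0.08 ± 0.11, and was not called in either fit, with 144 to 151 CPM in controls, 130 to 158 in compressed replicates 1 to 5 and 226 in replicate 6. Sdhd, the other anchor, and Sdhb, the iron-sulfur subunit, were called lower only without replicate 6, at log2 fold changes of -0.29 and -0.20. The levels of each in compressed replicates 1 to 5 lay wholly below the controls, as they did for 24.9% of all tested genes.

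Complex III, which passes electrons from ubiquinol to cytochrome c, had 6 nuclear genes here, and they did not move as 1 group. Uqcrq (ENSMUSG00000044894), a small accessory subunit, ranged from 129 to 138 CPM in controls (median 134), from 149 to 155 CPM in compressed replicates 1 to 5, and was at 282 CPM in replicate 6. No compressed library overlapped a control. Its log2 fold change was 0.38 ± 0.14 (adjusted p = 0.0437), and 0.19 ± 0.03 without replicate 6 (adjusted p = 4.65e-06). Cyc1, cytochrome c1, went the other way, with 173 to 184 CPM in controls (median 178), 122 to 142 CPM in compressed replicates 1 to 5 and 190 CPM in replicate 6. Its log2 fold change was -0.30 ± 0.09 (adjusted p = 0.0106), and -0.40 ± 0.04 without replicate 6 (adjusted p = 4.12e-09). Without that library the core proteins differed in call, with Uqcrc1 lower at -0.20 and Uqcrc2 at -0.05 (adjusted p = 0.172). The Rieske iron-sulfur protein Uqcrfs1, at 0.01, was not called either.

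Cytochrome c, the soluble carrier between complexes III and IV and also a trigger of apoptosis when it leaves the organelle, is encoded by Cycs. Its controls ranged from 105 to 111 CPM (median 107), compressed replicates 1 to 5 from 76.3 to 91.6 CPM, and replicate 6 had 138 CPM. The log2 fold change was -0.23 ± 0.12 with all 12 libraries (adjusted p = 0.148) and -0.39 ± 0.04 without replicate 6 (adjusted p = 4.21e-08). The 7 listed genes with near-identical stretches of this transcript had 1021 counts together, beside 45176 for Cycs.

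Complex IV, cytochrome c oxidase, had 7 nuclear genes measured, counting Ndufa4, which was first assigned to complex I and is now placed here. With all 12 libraries 0 of the 7 were called by edgeR, 0 by DESeq2, and 0 had an unadjusted p under 0.05. Without compressed replicate 6, 4 were called lower and 0 higher. By edgeR, 21.9% of all tested genes were called lower and 24.5% higher with all 12 libraries, and 32.2% and 33.8% without replicate 6. Ndufa4 (ENSMUSG00000029632) had the lowest fold change of the 37 nuclear genes in those 11 libraries. Controls ranged from 127 to 143 CPM (median 134), compressed replicates 1 to 5 from 89.3 to 110.5 CPM, and replicate 6 had 204 CPM. The log2 fold change was -0.18 ± 0.17 (adjusted p = 0.397) with all 12 and -0.41 ± 0.05 without replicate 6 (adjusted p = 1.55e-07). Cox6c had the highest value of the complex, 0.23 ± 0.16 (adjusted p = 0.253) with all 12 and 0.02 without replicate 6, with 101 to 106 CPM in controls, 96.4 to 115 in compressed replicates 1 to 5 and 204.5 in replicate 6. Cox4i1, the regulatory subunit 4, was among the most abundant per kilobase of the 37, at 467 CPM per kb in controls, and ranged from 345 to 365 CPM in controls and from 329 to 372 CPM in compressed replicates 1 to 5, which overlapped. Cox7c, Cox7a2 and Cox5b changed sign with the library, from 0.10, 0.04 and 0.04 with all 12 to called values of -0.18, -0.17 and -0.12 without it.

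ATP synthase had 5 nuclear genes, and all 5 were below 0 in both fits. With all 12 libraries 2 were called lower, and without compressed replicate 6 all 5 were, with groups that did not overlap in any of them. The shares of all tested genes called lower were 21.9% and 32.2%. Without replicate 6, 24.9% of all tested genes were lower with groups that did not overlap. Atp5f1b and Atp5f1a, the beta and alpha subunits of the catalytic head, had the highest and the third highest level per kilobase of the 37 nuclear genes, at 806 and 427 CPM per kb in controls. Atp5f1a ranged from 1038 to 1085 CPM in controls (median 1048), from 872 to 984 CPM in compressed replicates 1 to 5 and was at 933 CPM in replicate 6, so that all 6 compressed libraries lay below all controls. Its log2 fold change was -0.17 ± 0.04 (adjusted p = 0.0034), and -0.17 ± 0.03 without replicate 6. Atp5f1b ranged from 1518 to 1583 CPM in controls, from 1248 to 1445 CPM in compressed replicates 1 to 5 and was at 1571 CPM in replicate 6, with a log2 fold change of -0.15 ± 0.05 (adjusted p = 0.0344), and -0.19 ± 0.03 without replicate 6. The peripheral stalk genes Atp5pb and Atp5po were called only without replicate 6, at -0.33 and -0.31, and the central stalk gene Atp5f1c had the value nearest 0, -0.04 ± 0.09 with all 12 and -0.14 ± 0.04 without replicate 6. Atp5pb ranged from 331 to 360 CPM in controls, from 259 to 297 CPM in compressed replicates 1 to 5 and was at 453 CPM in replicate 6.

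**Figure D2:**
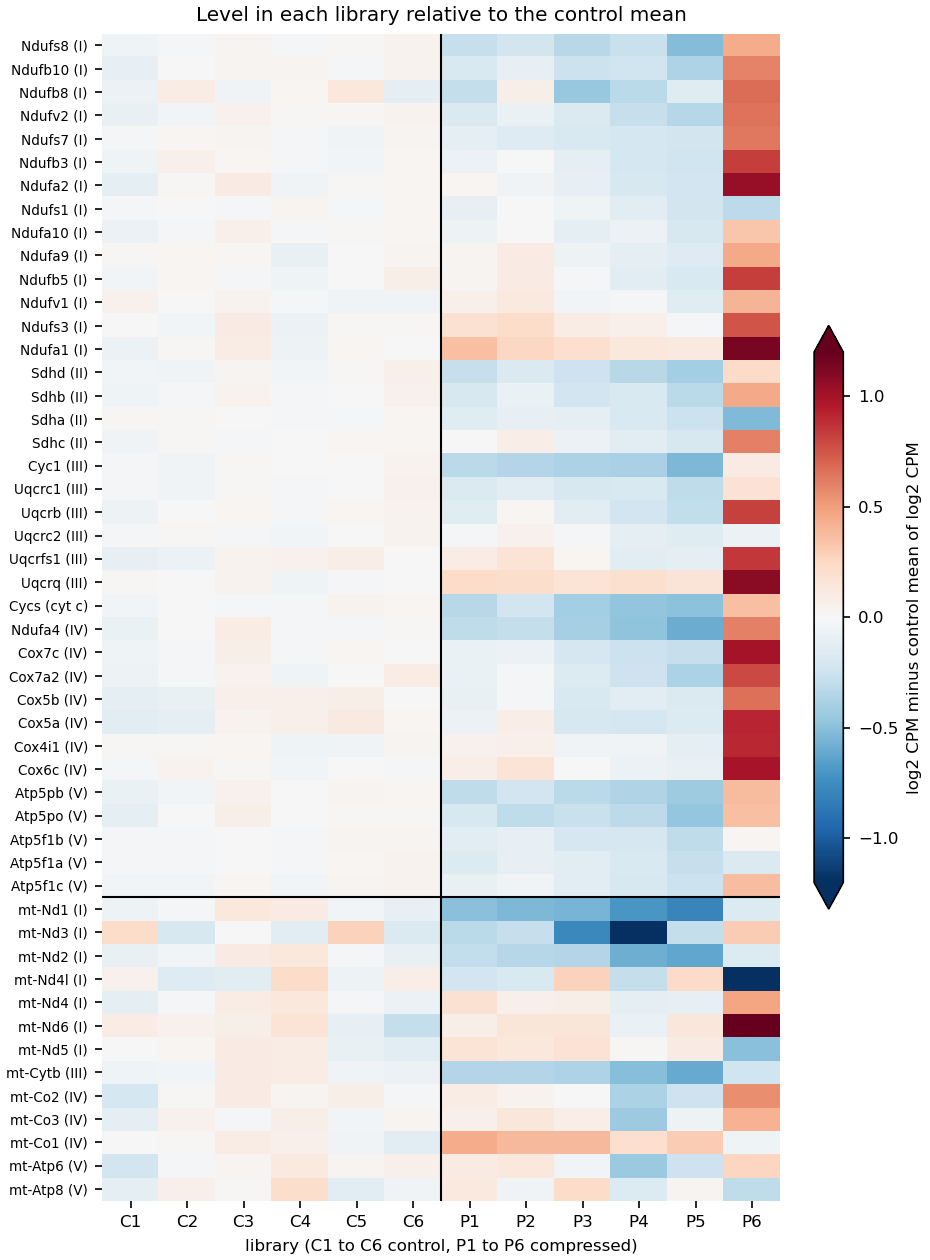
Level of each of the 50 genes (rows, by genome and complex) in each of the 12 libraries (columns), as log2 CPM minus the mean of log2 CPM over the controls (color). The nuclear rows are pale blue in most of P1 to P5 and red in P6 for all but a few genes, and the control columns stay pale.

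Compressed replicate 6 was the highest of all 12 libraries for 32 of the 37 nuclear genes and the lowest for 2 (Sdha and Ndufs1). Beside the other compressed libraries its levels differed by a log2 ratio of -0.38 for Sdha to 1.18 for Cox7c, with a median of 0.77. Uqcrc2, Atp5f1a and Atp5f1b lay within the range of the other libraries in it. The plot of levels by library shows this as 1 column that differs from the 5 beside it.

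The position of a nuclear gene in that library went with the length of its transcript. Members with transcripts under 1000 bases (16 genes) were higher in replicate 6 than in the other compressed libraries by a median of 0.94 on the log2 scale, those of 1000 to 2000 bases (15 genes) by 0.51, and those of 2000 to 3000 bases (4 genes) differed by -0.11. Over all tested genes the medians in these length classes were 0.63, 0.37 and 0.03, and -0.43 for genes of 3000 bases or more. The 2 members of 3000 bases or more, Cycs and Sdhc, had values of 0.75 and 0.67 and lay off that trend. Their lengths, 3123 and 3171 bases, are each of 1 annotated transcript, and whether the cells used that transcript was not tested. Spearman's rho between transcript length and the difference was -0.82 across the 37 nuclear genes and -0.62 across the 14657 tested genes with a length. These are correlations across genes of the same libraries, given as a description. For the difference between compressed replicates 1 to 5 and the controls, rho with length was -0.04 across the 37 and 0.09 across all. With each library's trend with transcript length removed, the fit to all 12 libraries called 14 nuclear members lower and 3 higher, and the fit to 11 libraries called 23 lower and 3 higher. Over all tested genes, the first of these fits called 4029 of 15001 lower and 4437 higher. The second called 4957 of 15117 lower and 5238 higher. The part of RNA quality or library preparation in replicate 6 was not tested.

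**Figure D3:**
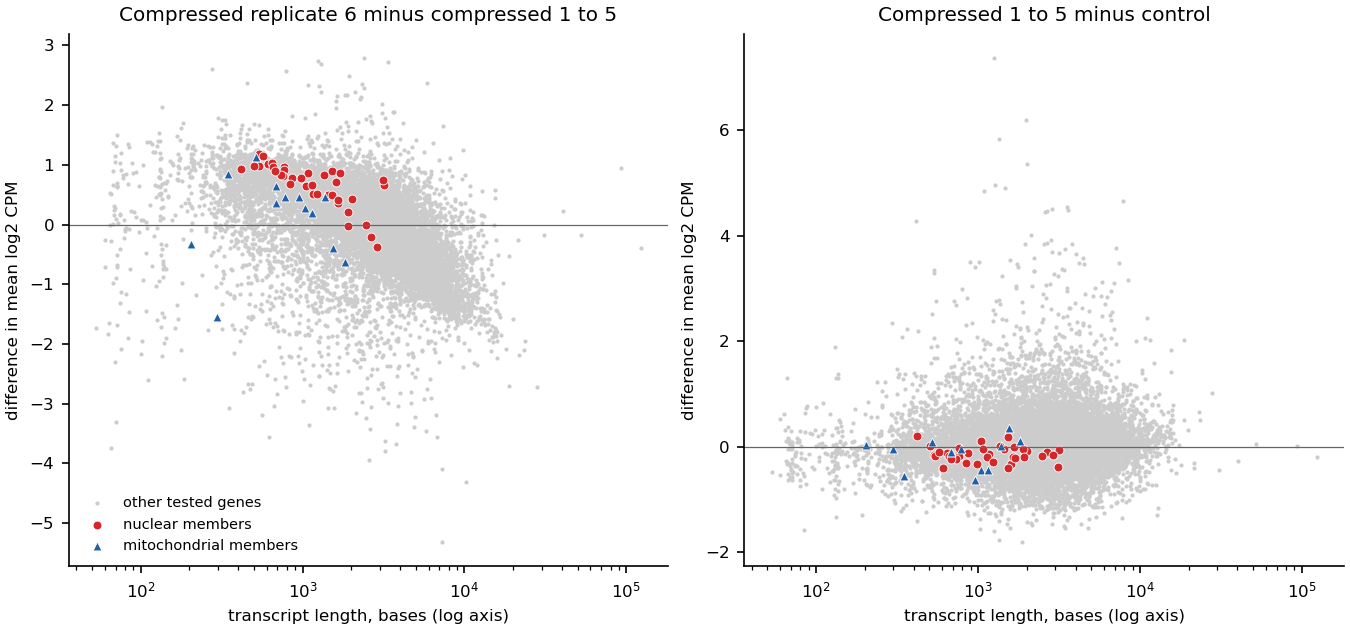
Transcript length (x axis, bases, log scale) against the difference in log2 CPM between compressed replicate 6 and the mean of compressed replicates 1 to 5 (left) and between compressed replicates 1 to 5 and controls (right), for all tested genes with a length (grey), nuclear members (red) and mitochondrial members (blue). On the left the short nuclear members lie near 1 and the values fall with length, and on the right they lie near or below 0 at every length.

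The 13 genes of the mitochondrial genome are transcribed as long precursors from both strands of the circular DNA and are then cut into mRNAs, so that the genes are not independent of each other. Together they held 2.77% to 3.19% of the counts in controls (median 2.95%) and 2.62% to 3.17% in compressed libraries (median 2.93%), and the ranges overlapped. Compressed replicate 6 had the lowest share, 2.62%. The composition of these counts differed between the groups by more than their total did. Several of the 13 genes have near-identical nuclear copies, described below, so the counts may not give their full share of the RNA.

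With all 12 libraries 1 mitochondrial gene was called higher and 3 lower, and without compressed replicate 6, 2 were called higher and 4 lower. The shares called lower, 23.1% and 30.8%, were near those of all tested genes (21.9% and 32.2%), and the shares called higher, 7.69% and 15.4%, stood beside 24.5% and 33.8%. The medians were -0.02 and -0.03. mt-Co1 (ENSMUSG00000064351), the catalytic core subunit of complex IV, had the highest level per kilobase of the 50. It ranged from 12950 to 15040 CPM in controls (median 14190), from 16240 to 19250 CPM in compressed replicates 1 to 5 and was at 13630 CPM in replicate 6. All of the first 5 compressed libraries lay above all controls, and replicate 6 lay among the controls. The log2 fold change was 0.29 ± 0.08 (adjusted p = 0.00812), and 0.35 ± 0.04 without replicate 6 (adjusted p = 4.75e-07).

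The 3 genes called lower in both fits were mt-Nd1, mt-Cytb and mt-Nd2, and in each all 6 compressed libraries lay below all controls. Over all tested genes that held for 17%. mt-Nd1 (ENSMUSG00000064341), a core membrane subunit of complex I next to the ubiquinone site, ranged from 3857 to 4514 CPM in controls (median 4057), from 2389 to 2917 CPM in compressed replicates 1 to 5 and was at 3696 CPM in replicate 6. Its log2 fold change was -0.53 ± 0.09 (adjusted p = 3.00e-04), and -0.62 ± 0.05 without replicate 6 (adjusted p = 1.29e-09), the lowest of the 50 members. mt-Cytb, cytochrome b and the one subunit of complex III made in the organelle, ranged from 4446 to 4994 CPM in controls (median 4538), from 3067 to 3662 CPM in compressed replicates 1 to 5 and was at 3948 CPM in replicate 6. Its log2 fold change was -0.40 ± 0.06 (adjusted p = 1.62e-04), and -0.44 ± 0.05 without replicate 6. mt-Nd2, another membrane subunit of complex I, ranged from 1905 to 2201 CPM in controls (median 1984), from 1311 to 1650 CPM in compressed replicates 1 to 5 and was at 1806 CPM in replicate 6, with a log2 fold change of -0.39 ± 0.08 (adjusted p = 0.00117), and -0.44 ± 0.06 without replicate 6.

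As a share of all mitochondrial mRNA counts, mt-Co1 took 48.2% ± 0.65 in controls (SD, n = 6) and 59.5% ± 0.81 in compressed replicates 1 to 5 (SD, n = 5), and 50.2% in replicate 6. mt-Nd1 took 14.1% ± 0.24, 8.92% ± 0.34 and 13.6% in the same order. mt-Cytb took 15.9% ± 0.28, 11.4% ± 0.44 and 14.5%. These shares do not depend on the scaling between libraries. Their total holds few counts of mt-Co2, mt-Co3, mt-Atp6, mt-Nd3 and mt-Nd4l, at control means of 0.12%, 0.11%, 0.08%, 0.007% and 0.008%. Those genes have near-identical copies, described below, so the shares are of counts and may not be those of the mRNA. The part of transcript length or of library preparation in these shares was not tested. In compressed replicate 6 the share of mt-Nd2 (6.65%) lay within the range of the controls (6.63% to 7.12%), and the shares of mt-Co1, mt-Nd1 and mt-Cytb were nearer to the controls than in any other compressed library. Complex I genes of the same strand did not move together, since mt-Nd4 had a log2 fold change of 0.11 ± 0.09 (adjusted p = 0.36) and mt-Nd5 of 0.03 ± 0.10 (adjusted p = 0.847). mt-Nd4 ranged from 1213 to 1423 CPM in controls, from 1216 to 1483 CPM in compressed replicates 1 to 5 and was at 1818 CPM in replicate 6. Without replicate 6, mt-Nd5 was called higher at 0.11 ± 0.04 (adjusted p = 0.0204), with 2638 to 3077 CPM in controls, 2910 to 3247 CPM in compressed replicates 1 to 5 and 2030 CPM in replicate 6. With library size alone these 11 libraries gave 0.06 for mt-Nd5, not called. mt-Nd6, encoded on the opposite strand from the other 12, ranged from 42.0 to 57.5 CPM in controls, from 48.3 to 56.6 CPM in compressed replicates 1 to 5 and was at 118.5 CPM in replicate 6, and was not called in either fit.

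**Figure D4:**
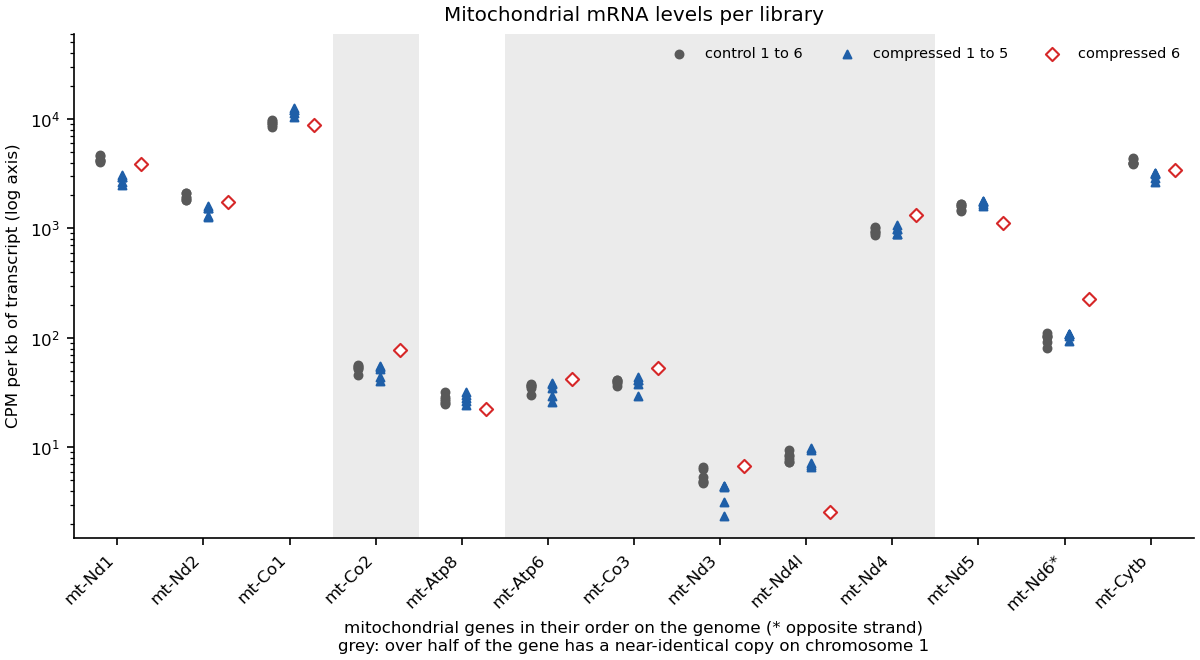
Level of the 13 mitochondrial mRNAs in each library, as CPM per kb of transcript (y axis, log scale), in gene order along the mitochondrial genome, for controls (grey circles), compressed replicates 1 to 5 (blue triangles) and compressed replicate 6 (red diamonds). Genes on a grey ground have a near-identical annotated copy over most of their length. In 5 of these 6 the copy spans nearly the whole gene, so that counts cannot be assigned to gene or copy. These 5 lie at 5.48 to 52.8 CPM per kb in the control means. The other, mt-Nd4, is covered over 63.6% and had 611399 counts beside 3305 for its copy.

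The counts of several mitochondrial genes are uncertain, because nuclear DNA holds copies of mitochondrial genes. In the GENCODE M21 transcripts, 7 of the 13 had a stretch of at least 100 bases that was at least 98% identical to an annotated pseudogene of chromosome 1. The copies of mt-Co2, mt-Co3, mt-Atp6 and mt-Nd4l had 0 mismatches over 681 of 684, 783 of 784, 678 of 681 and 294 of 297 bases. The copy of mt-Nd3 had 1 mismatch (T3C, counted from 1 at the first base of the mitochondrial gene) over 345 of 348 bases. The copy of mt-Nd4 covered 876 of 1378 bases with 0 mismatches, and that of mt-Co1 483 of 1545 bases with 1 (A1066T). The starts of a pair without a mismatch, and stretches of the pairs with 1, are printed to show how little sequence a short read has to tell gene and copy apart, with the base that differs in capitals.
mt-Co2, bases 1 to 60: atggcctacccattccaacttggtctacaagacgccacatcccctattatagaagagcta
Gm28661, copy of mt-Co2: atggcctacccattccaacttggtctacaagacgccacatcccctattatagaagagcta
mt-Nd3, bases 1 to 60: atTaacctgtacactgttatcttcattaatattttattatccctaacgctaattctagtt
Gm28438, copy of mt-Nd3: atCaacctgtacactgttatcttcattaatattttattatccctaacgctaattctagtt
mt-Co1, bases 1063 to 1122: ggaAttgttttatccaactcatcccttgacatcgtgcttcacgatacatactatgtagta
Gm29216, copy of mt-Co1: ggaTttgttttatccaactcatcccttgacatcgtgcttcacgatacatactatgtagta

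The 5 genes covered nearly whole by a copy (mt-Co2, mt-Co3, mt-Atp6, mt-Nd3 and mt-Nd4l) were at 5.48 to 52.8 CPM per kb in controls, beside 9144 for mt-Co1, 4329 for mt-Nd1 and 4075 for mt-Cytb. In counts, mt-Co2 had 16494 over the 12 libraries and its copy Gm28661 9444, and mt-Nd3 had 770 and its copy Gm28438 934. How the authors' counting treated reads that align to gene and copy alike is not given in the sources used here, so these counts cannot be assigned to one genome, and the gap between their levels and those of the other genes may not be one of transcript abundance. mt-Atp8, which lies between mt-Co2 and mt-Atp6 in gene order, was at 27.5 CPM per kb and shares 21.1% of its length with mt-Atp6. No copy of mt-Atp8 of at least 100 bases was found among the annotated transcripts. Sequence outside them was not searched, so an unannotated copy was not excluded. Adding the counts of the copies to the mitochondrial genes changed the call of 0 of 50 members.

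Of these 5, mt-Nd3 was called lower without compressed replicate 6 at a log2 fold change of -0.54 ± 0.16 (adjusted p = 0.00468), with 1.65 to 2.29 CPM in controls, 0.82 to 1.56 CPM in compressed replicates 1 to 5 and 2.34 CPM in replicate 6. The other 4 were not called in either fit, nor was mt-Atp8. mt-Co2 ranged from 31.2 to 38.6 CPM in controls and from 27.8 to 38.2 CPM in compressed replicates 1 to 5, mt-Co3 from 28.8 to 32.5 and from 22.96 to 34.1, and mt-Atp6 from 20.6 to 26.1 and from 17.7 to 26.3. mt-Atp8 ranged from 5.09 to 6.48 CPM in controls and from 4.99 to 6.51 CPM in compressed replicates 1 to 5. mt-Nd4l ranged from 2.16 to 2.81 CPM in controls and from 1.98 to 2.93 CPM in compressed replicates 1 to 5, and its 0.77 CPM in replicate 6 was the lowest of the 12 libraries.

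Of 43 other structural subunits, all tested, 1 was called higher (Ndufv3) and 1 lower (Atp5mc1) with all 12 libraries, and 3 higher and 27 lower without compressed replicate 6, with medians of 0.07 and -0.13. These are 2.33% each way with all 12 (24.5% higher and 21.9% lower over all tested genes), and 6.98% higher and 62.8% lower without replicate 6 (33.8% and 32.2%). Ndufv3, an accessory subunit of the matrix arm of complex I, ranged from 60.1 to 66.6 CPM in controls, from 103 to 121 CPM in compressed replicates 1 to 5 and was at 175 CPM in replicate 6, a log2 fold change of 0.97 ± 0.11 (adjusted p = 5.24e-06), and 0.85 without replicate 6. Atp5mc1, which encodes the ring subunit c, ranged from 99.1 to 107 CPM in controls, from 68.5 to 73.4 CPM in compressed replicates 1 to 5 and was at 121 CPM in replicate 6, a log2 fold change of -0.37 ± 0.12 (adjusted p = 0.0226), and -0.52 without replicate 6.

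A list of isoforms and paralogs used in some tissues or conditions, which also took in Higd1a, Higd2a and Cox7a2l, was mostly called higher where tested. Of the tissue isoforms tested, Cox4i2 and Cox7a1 were called higher and Cox6a2 was not called. Of 13 listed, 6 had enough counts and 5 of these were called higher in both fits, beside 24.5% and 33.8% of all tested genes, and their median log2 fold change was 0.83 with all 12 libraries and 0.68 without replicate 6. Cox4i2, the isoform that stands in for Cox4i1 under low oxygen and in lung, was low but ranged from 0.41 to 0.58 CPM in controls and from 1.92 to 2.40 CPM in compressed replicates 1 to 5, with 3.61 CPM in replicate 6. Its log2 fold change was 2.31 ± 0.18 (adjusted p = 1.91e-07), and 2.15 without replicate 6, from 114 counts in all controls and 506 in all compressed libraries. Cox7a1, the isoform of heart and skeletal muscle, ranged from 2.16 to 2.96 CPM in controls, from 3.68 to 5.55 CPM in compressed replicates 1 to 5 and was at 8.41 CPM in replicate 6 (log2 fold change 1.02 ± 0.18, adjusted p = 3.50e-04). Higd1a, a stress-induced protein of complex IV, ranged from 52.5 to 60.2 CPM in controls, from 89.8 to 113 CPM in compressed replicates 1 to 5 and was at 186 CPM in replicate 6 (log2 fold change 1.07 ± 0.15, adjusted p = 4.27e-05). Cox7a2l, which joins complexes III and IV into supercomplexes, and Higd2a were higher at 0.63 ± 0.10 and 0.43 ± 0.11. Cox6a2 at 0.37 ± 0.19 (adjusted p = 0.125) was not called. Cox6b2, Cox7b2, Cox8b, Cox8c, Cyct, Ndufa4l2 and AA467197 had at most 15 counts in all controls and 34 in all compressed libraries and were not tested.

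Of 52 assembly factors, which build the complexes, 3 were called higher and 13 lower with all 12 libraries, the latter a share of 25% that lay near the 21.9% of all tested genes. Without compressed replicate 6, 4 were called higher and 29 lower, or 55.8% lower beside 32.2%. The shares called higher were 5.77% and 7.69%, beside 24.5% and 33.8% of all tested genes. Coa7, an assembly factor of complex IV, was lower at a log2 fold change of -0.58 ± 0.12 (adjusted p = 0.00106), and -0.72 without replicate 6, with 11.1 to 13.1 CPM in controls, 6.58 to 8.11 CPM in compressed replicates 1 to 5 and 11.7 CPM in replicate 6. Ndufaf4 and Ndufaf6, assembly factors of complex I, were lower at -0.43 ± 0.09 and -0.42 ± 0.12. Cmc1, a chaperone of mt-Co1, and Nubpl, which supplies iron-sulfur clusters to complex I, went against the list at 0.70 ± 0.14 and 0.46 ± 0.11.

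Of 34 genes of mitochondrial DNA transcription, replication and RNA processing, 2 were called higher and 19 lower with all 12 libraries, and 2 and 25 without replicate 6. The shares called lower were 55.9% and 73.5%, beside 21.9% and 32.2% of all tested genes, and 5.88% were called higher in both fits, beside 24.5% and 33.8%. The median was -0.17, and -0.19 without replicate 6. Fastkd2, an RNA-binding protein of the organelle, ranged from 39.9 to 43.4 CPM in controls, from 25.1 to 29.0 CPM in compressed replicates 1 to 5 and was at 24.6 CPM in replicate 6, a log2 fold change of -0.66 ± 0.05 (adjusted p = 1.64e-07), and -0.64 without replicate 6. The exonuclease Mgme1 (-0.56 ± 0.05), the RNA-degrading enzyme Pnpt1 (-0.53 ± 0.05) and the helicase Twnk (-0.48 ± 0.05) followed. Hsd17b10, a subunit of the RNase that cuts tRNAs out of the precursors, was higher at 0.39 ± 0.11 (adjusted p = 0.0095). The transcripts of these 4 lower genes are 2707 to 4486 bases long, and compressed replicate 6 lay below all controls in each of them.

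Of 79 mitochondrial ribosomal protein genes 4 were called higher and 22 lower, and without replicate 6, 4 and 61, with medians of -0.14 and -0.28. The shares called lower were 27.8%, beside 21.9% of all tested genes, and 77.2%, beside 32.2%. The share called higher was 5.06% in both fits, beside 24.5% and 33.8%. Mrpl42 (-0.47 ± 0.08) and Mrpl40 (-0.46 ± 0.10) were lower, and Mrpl14 (0.58 ± 0.16) and Mrpl52 (0.56 ± 0.16) went against the list. The 2 mitochondrial ribosomal RNAs were not called with all 12 libraries and were lower without replicate 6, mt-Rnr1 at -0.21 and mt-Rnr2 at -0.24. These RNAs carry no long poly(A) tail, and the libraries were enriched for mRNA, so their counts are the part that passed the enrichment. They held 0.265% to 0.324% of the counts in controls, 0.228% to 0.270% in compressed replicates 1 to 5 and 0.382% in replicate 6.

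**Figure D5:**
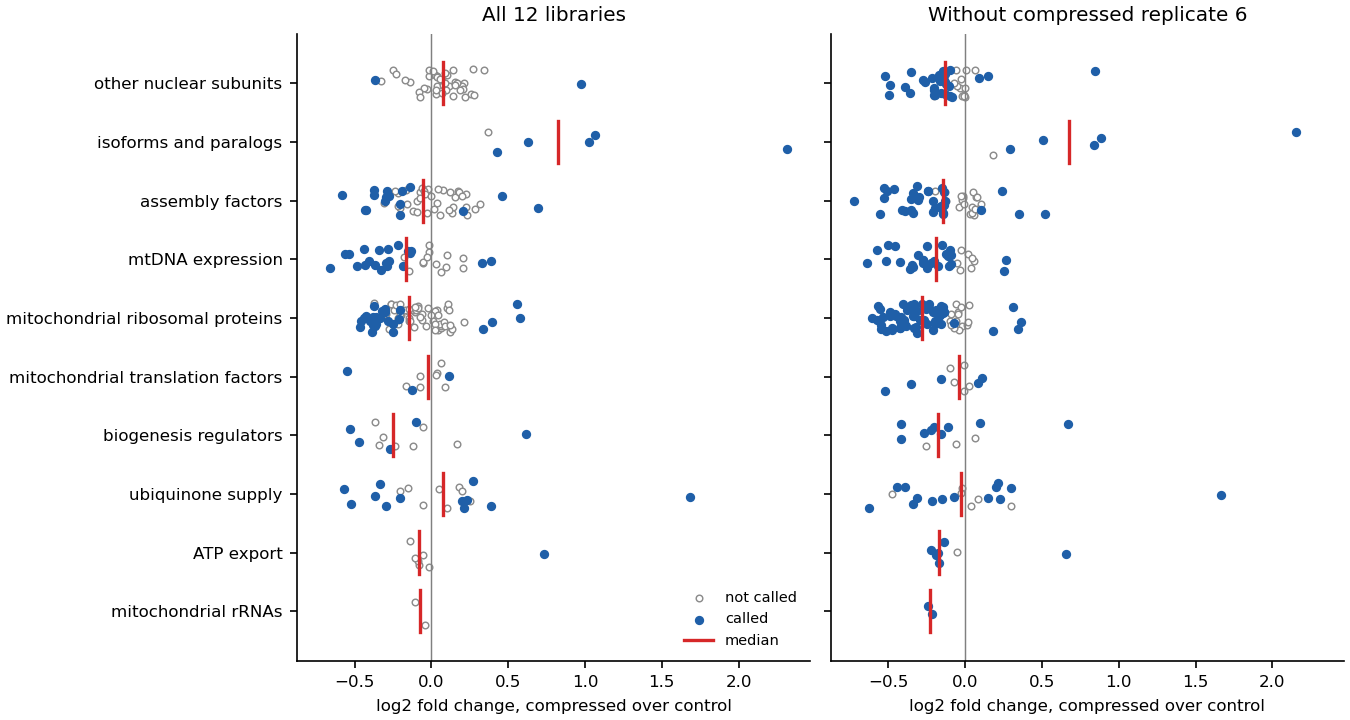
Log2 fold change (compressed over control, x axis) of every tested gene of 10 other lists of mitochondrial genes, with all 12 libraries (left) and without compressed replicate 6 (right). Blue points were called, open points were not, and red bars are medians. The isoform list lies above 0 in both panels, while the ribosomal protein and other subunit lists shift to the left without replicate 6.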

How the data were processed

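Bulk RNA-seq of 12 libraries (6 control, 6 compressed) was analysed. The authors deposited whole-number counts per Ensembl gene, from directional libraries enriched for mRNA and aligned with STAR 2.7.2 to GRCm39 per the submitters' processing notes. Which counting program, strand setting and annotation release produced them is not given in the sources used here, so genes that overlap on opposite strands (Cox5a over 41.7% and Uqcrc2 over 26.6% of their transcripts, among others) may share reads. Names and transcript lengths came from GENCODE M21 by ID (52000 of 56941 IDs, 99.5% of counts). Of the 50 members 5 were found by an older symbol, and Atp5po matched 2 IDs, of which the second had 0 counts.

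The members and lists were chosen with earlier results of these data known. Every member could be named. Ranges of CPM are given for the highest and lowest fold change of each complex, for nuclear members without overlap and a log2 change of at least 0.4, for members called against most of their complex and for all mitochondrial genes. Of each other list up to 4 called genes with the largest change and up to 2 called against it could be named, and all measured isoforms, with ranges for some. Other genes given with values were chosen after their values were seen.

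Counts were analysed with edgeR 4.0.16 in R 4.3.3: filterByExpr with a minimum count of 10, TMM, and the quasi-likelihood F test on condition, with Benjamini-Hochberg adjustment over all 15001 tested genes (15117 without compressed replicate 6). Each standard error was obtained by dividing the size of the log2 fold change by the root of its F statistic. Per-library log2 levels used a prior count of 2. Copies were sought with BLAST 2.17.0 among the GENCODE M21 transcripts and not in the genome sequence. Pairs of libraries within a group differed by a chi-square of 2.20 to 17.0 per gene on average (169.9 to 225 where compressed replicate 6 was in the pair), above the value near 1 of counting error alone, and none was taken as a duplicate. The procedure was tested on simulated data. Alternatives were DESeq2 1.42.0, other scalings and filters, removal of a trend with transcript length, a replicate block, a test against a fold change of 1.2 and leaving out libraries. Those on 11 libraries and the added copies were chosen after seeing the data.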

Additional observations from a re-analysis of the deposited data

Results flagged for a closer look

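In each group of 6 libraries the highest or lowest library was set against Dixon's 95% limit for its gap to the nearest library over the range of the group. Of 104 groups tested (the 50 members and 2 summed levels, in controls and in compressed libraries), 35 passed it. The limit passes about 1 in 20 of independent groups. These groups share the same 12 libraries, so 1 library can pass in many of them at once and the count is a description. The share of all tested genes past this limit is not given here, but 32.6% of them were highest and 32.4% lowest in compressed replicate 6. In 34 of the 35 the library was compressed replicate 6, in 33 of them as the highest.

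For complex I its levels were 72.8 CPM for Ndufa1, 140.9 for Ndufa2, 153.4 for Ndufa9, 149.1 for Ndufa10, 87.5 for Ndufb3, 117.1 for Ndufb5, 16.1 for Ndufb8, 100.3 for Ndufb10, 95.1 for Ndufs3, 106.1 for Ndufs7, 194.5 for Ndufs8 and 184.9 for Ndufv2. For complex II they were 190.3 CPM for Sdhb, 226.3 for Sdhc and 203.3 for Sdhd. For complex III and cytochrome c they were 299.6 CPM for Uqcrc1, 184.3 for Uqcrfs1, 121.4 for Uqcrb, 282.2 for Uqcrq, 190.0 for Cyc1 and 138.0 for Cycs. For complex IV they were 204.0 CPM for Ndufa4, 667.2 for Cox4i1, 276.5 for Cox5a, 189.4 for Cox5b, 204.5 for Cox6c, 191.0 for Cox7a2 and 191.9 for Cox7c, which takes in each of the 7 nuclear members of that complex. For ATP synthase they were 293.3 CPM for Atp5f1c, 453.2 for Atp5pb and 74.8 for Atp5po, while Atp5f1a and Atp5f1b, the subunits that form the catalytic sites, did not pass the limit. The summed level of the 37 nuclear genes in that library, 9203 CPM, passed it too.

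Of the mitochondrial genes, mt-Nd6 at 118.5 CPM was the highest of its group in compressed replicate 6 and mt-Nd5 at 2030 CPM the lowest. The only control library that passed the limit was control replicate 4 for Ndufa9, at 105.1 CPM, below the other 5 at 112.2 to 114.4 CPM.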

How the results depend on the processing

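Leaving out compressed replicate 6 had the widest effect of the alternatives. It took the nuclear members called lower from 4 to 25 and those called higher from 2 to 3, and 6 members turned from values above 0, not called, to called values below 0. Over all libraries left out in turn, of which compressed replicate 6 gave the lowest value, the log2 fold change ranged from -0.11 to 0.23 for Ndufa2, from -0.12 to 0.14 for Ndufb3, from -0.15 to 0.12 for Uqcrb, from -0.12 to 0.09 for Cox5b, from -0.17 to 0.11 for Cox7a2 and from -0.18 to 0.17 for Cox7c. In the same way nuclear members called higher ranged from 0 to 3 (0 without any 1 of the control replicates and 1 without compressed replicate 1), nuclear members called lower from 3 to 25 and mitochondrial members called higher from 1 to 2. Over all tested genes these fits called 3326 to 5117 higher and 2999 to 4864 lower, the most without compressed replicate 6. Nuclear members called lower were 8 with library size alone, 14 with the length trend removed and 0 against a fold change of 1.2. Of all 15001 tested genes, these settings called 4050, 4029 and 1544 lower in the same order, beside 3283 in the main fit. Nuclear members called higher were 0 with library size alone, with the replicate block and against a fold change of 1.2, and mitochondrial members called higher were 0 in that last test. Of all 15001 tested genes, these settings called 3079, 3299 and 2127 higher in the same order, beside 3677 in the main fit. The cause of these differences was not tested. Without compressed replicate 6, the test against a fold change of 1.2 called 4 nuclear members lower and 0 higher and 1 mitochondrial member higher, library size alone also called 1 mitochondrial member higher, and leaving out a further library gave 1 to 2. Of 15117 genes tested in these 11 libraries, the test against 1.2 called 2260 lower and 2679 higher. Library size alone called 4361 of them higher. DESeq2, RLE factors, scaling from nuclear genes alone, both count filters and the added copies kept each count of calls within 1.5 times. Of the scalings of all 12 libraries, library size alone moved the median log2 fold change of all genes the most, by -0.06.

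The replicate numbers did not pair the samples: libraries of the same number correlated at -0.12 to 0.040 after removal of the group means, and 0 of 6 correlated best with their own number. With the replicate block, 0 nuclear members were called higher and 3 lower, beside 3299 higher and 3094 lower of all 15001 tested genes.

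Counting depth limits mt-Nd3, mt-Nd4l and mt-Atp8, which had 770, 1021 and 2511 counts over 12 libraries, and less so the other members. With all 12 libraries no member with a nuclear gene was called against a fold change of 1.2. That test called 2127 of all 15001 tested genes higher and 1544 lower.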

Other observations

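Sqor, which oxidizes hydrogen sulfide and passes the electrons to ubiquinone, ranged from 10.2 to 14.4 CPM in controls, from 35.4 to 42.6 CPM in compressed replicates 1 to 5 and was at 40.4 CPM in replicate 6, a log2 fold change of 1.69 ± 0.08 (adjusted p = 2.52e-09), and 1.67 without replicate 6. Of 20 tested genes of ubiquinone synthesis and other electron donors, 6 were called higher and 6 lower, and 6 and 8 without compressed replicate 6. The shares were 30% each way, then 30% and 40%, beside 24.5% higher and 21.9% lower and then 33.8% and 32.2% over all tested genes. Pdss1, which makes the side chain of ubiquinone, was lower at -0.57 ± 0.07 (adjusted p = 1.56e-05), and Coq10a, which binds ubiquinone, was higher at 0.39 ± 0.08 (adjusted p = 0.00171). Dhodh, which gives electrons from pyrimidine synthesis to ubiquinone, was lower at -0.37 ± 0.08. Prodh, the proline dehydrogenase, was lower at -0.52 ± 0.20 (adjusted p = 0.0494) at under 1 CPM in every library.

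Of 7 tested genes of ATP export, phosphate entry and uncoupling, Vdac1 alone was called with all 12 libraries. This channel of the outer membrane ranged from 293 to 317 CPM in controls, from 440 to 512 CPM in compressed replicates 1 to 5 and was at 635 CPM in replicate 6, a log2 fold change of 0.73 ± 0.08 (adjusted p = 2.80e-06), and 0.66 without replicate 6. Without replicate 6 the other channels Vdac2 and Vdac3 and the carriers Slc25a3, Slc25a4 and Slc25a5 were called lower, at -0.22, -0.18, -0.19, -0.13 and -0.17. With all 12 libraries 14.3% of this list were called higher and 0% lower, beside 24.5% and 21.9% of all tested genes. Without replicate 6 the shares were 14.3% and 71.4%, beside 33.8% and 32.2%. Of 12 tested regulators of mitochondrial biogenesis 1 was called higher and 4 lower, and 2 and 7 without replicate 6. The lower ones were a share of 33.3% and then 58.3%, beside 21.9% and 32.2% of all tested genes. The higher ones were 8.33% and then 16.7%, beside 24.5% and 33.8%. The nuclear receptor Ppard was higher at 0.61 ± 0.07 (adjusted p = 1.27e-05), and the factors Pprc1 (-0.53 ± 0.13), Nrf1 (-0.47 ± 0.07) and Gabpb1 (-0.27 ± 0.05) were lower. Of 10 mitochondrial translation factors 1 was called higher and 2 lower, and 2 and 3 without replicate 6. The shares called lower, 20% and 30%, were near the 21.9% and 32.2% of all tested genes. The shares called higher, 10% and 20%, stood beside 24.5% and 33.8%. The elongation factor Gfm1 was lower at -0.55 ± 0.05 (adjusted p = 6.70e-07).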
